A study of Mus musculus with 12 samples.

Results

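The comparison described here is a difference of differences: the change with interferon gamma (IFNγ) in cells with Cop1 guides, set against the change with IFNγ in cells with a control guide. It was computed in 1 model of all 12 libraries as the mean response of the Cop1_sgRNA1 and Cop1_sgRNA2 cells minus the response of the Rosa26_sgRNA cells, on the log2 scale, and is called the interaction below. A positive interaction means that the response was more positive in the Cop1-guide cells, which includes genes that fell less. Of 11904 genes tested, 683 were called in the interaction at a Benjamini-Hochberg adjusted p under 0.05 in edgeR's quasi-likelihood test, which is 5.74% of the genes. Each called gene was then placed by where its level differed between Cop1-guide and control cells: at baseline (vehicle), with IFNγ, at both or at neither.

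The cells were 4T1, an established mammary tumour line from the BALB/c strain with a triple-negative phenotype. They carried Cop1_sgRNA1, Cop1_sgRNA2 or Rosa26_sgRNA, the last aimed at a locus commonly used as a neutral site. Each population was given vehicle or 20 ng/ml IFNγ and harvested after 24 hours, which makes 6 groups with 2 libraries apiece. The cells with either Cop1 guide are called Cop1-guide cells, and Cop1 loss in the plots. All groups therefore share the parent line and an editing step, and the control is 1 population. The labels do not say whether the populations were pools or clones, or whether the 2 libraries of a group came from separate cultures. A p-value here therefore covers the spread between these libraries alone, and that spread may be technical.

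COP1 is an E3 ubiquitin ligase that marks transcription factors for degradation, among them c-Jun and members of the C/EBP and ETS families. IFNγ binds its receptor on the cell surface and signals through JAK kinases to target genes that carry GAS elements. IRF family factors bind ISRE elements in many of the same genes. In tumour cells the pathway is known for raising antigen presentation genes, guanylate-binding proteins and CXCR3 ligand chemokines. A gene can respond more steeply on the log scale because its starting level is lower, because its final level is higher, or both, and the split by level separates these cases.

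Library totals lay between 19378070 and 32609717 gene counts. The highest was Cop1_sgRNA1 vehicle replicate 1, whose group mate had 21289165 and whose deposited total exceeded its gene sum by 360. On the first and second principal components each library lay near its group mate. The first principal component held 80.9% of the variance and separated IFNγ from vehicle, and the second held 11.5% and separated Cop1 guides from Rosa26. Epithelial markers were all detected, with a summed level of 3017 to 4146 counts scaled to library size (CPM). Of 18 leukocyte markers 9 had no count, among them Cd3e, Cd4 and Cd8a, and the summed level of the list was 20.6 to 33.7 CPM. That sum was highest in the Rosa26 IFNγ libraries, at 32.7 and 33.7 CPM. It came mainly from Cd14, at 12.3 to 21.5 CPM over the libraries, and Cd68, at 6.25 to 12.3 CPM. The next marker, Csf1r, reached at most 1.11 CPM, and Ptprc had 15 counts over all libraries. The part of other cells in the results was not tested. In bulk RNA, fewer cells of a type and less RNA per cell cannot be told apart.

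In the GENCODE annotation of GRCm38, the build behind mm10, the protein-coding genes described in most detail lie on several chromosomes. Cop1 spans chromosome 1, 159232320 to 159347640, Irgm1 chromosome 11, 48861968 to 48871683, Irf8 chromosome 8, 120736358 to 120756694, and Jun chromosome 4, 95049034 to 95052222. Cxcl1 spans chromosome 5, 90891241 to 90893115, Ptgs2 chromosome 1, 150100031 to 150108227, Fscn1 chromosome 5, 142960343 to 142973185, and Thbs1 chromosome 2, 118111876 to 118127133. The counts are per gene and do not separate parts of a transcript.

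Cop1 itself stood at 89.7 and 98.2 CPM in the 2 Rosa26 vehicle libraries, at 59.1 and 63.1 with sgRNA1 and at 34.5 and 34.7 with sgRNA2. With IFNγ the values were 80.4 and 83.3 CPM in Rosa26, 60.7 and 60.2 with sgRNA1 and 32.3 and 33.6 with sgRNA2. Every Cop1-guide library lay below every Rosa26 library, and transcript remained in all of them. Transcript level does not show how much protein was lost, since a guide can disrupt the protein and leave the RNA. The IFNγ response of Cop1 did not pass the test of a difference (interaction 0.16 ± 0.07, log2 ± SE, adjusted p = 0.209).

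Promoter sequences are shown for 3 genes called in the interaction: Irgm1 and Igtp, with positive interactions, and Cxcl1, with a negative one. Igtp is shown for its promoter only and is not described further. Each is the stretch of 250 bases upstream of the RefSeq start, from the RefSeq promoter table of build GRCm38.p6, 5′ to 3′ on the gene's own strand. For Irgm1 and Cxcl1 that start differs from the GENCODE one given above. The Irgm1 stretch lies inside its GENCODE span, which ends at 48871683, and the Cxcl1 stretch reaches into its span, which begins at 90891241. Capitals mark matches to an ISRE core (2 GAAA runs with 2 free bases between them) in Irgm1 at chr11:48871421-48871670 on the minus strand, with 2 matches that overlap. In Igtp at chr11:58199306-58199555 on the plus strand they mark a GAS element (TTCNNNGAA) and an ISRE core. In Cxcl1 at chr5:90890995-90891244 on the plus strand they mark an NF-kB element, matched on both strands at overlapping positions.
Irgm1: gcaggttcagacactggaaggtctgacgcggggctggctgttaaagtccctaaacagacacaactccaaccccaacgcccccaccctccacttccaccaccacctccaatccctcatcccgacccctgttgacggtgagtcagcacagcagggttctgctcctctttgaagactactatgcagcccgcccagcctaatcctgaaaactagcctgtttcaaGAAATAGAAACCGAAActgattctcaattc
Igtp: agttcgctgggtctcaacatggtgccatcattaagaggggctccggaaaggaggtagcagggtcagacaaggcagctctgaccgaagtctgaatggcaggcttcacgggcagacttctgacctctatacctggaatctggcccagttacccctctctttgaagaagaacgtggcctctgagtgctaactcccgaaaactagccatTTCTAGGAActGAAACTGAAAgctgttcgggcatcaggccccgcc
Cxcl1: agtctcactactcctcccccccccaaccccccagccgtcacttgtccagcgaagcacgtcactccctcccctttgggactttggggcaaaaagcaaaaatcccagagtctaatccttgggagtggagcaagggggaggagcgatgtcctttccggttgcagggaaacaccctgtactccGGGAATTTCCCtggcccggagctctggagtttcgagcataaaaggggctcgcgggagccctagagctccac
Among the 9432 tested genes with an entry in that table, 3.27% held the ISRE core in this window on either strand, 7.17% the GAS element, 5.85% an AP-1 element (TGANTCA), 3.24% a CRE (TGACGTCA) and 4.39% the NF-kB element. The 323 genes with a positive interaction and an entry held these in 5.26%, 5.26%, 7.74%, 1.24% and 5.26%, and the 223 with a negative one in 7.17%, 9.42%, 11.7%, 6.73% and 8.52%. Of 21 tested guanylate-binding protein and immunity-related GTPase genes, 12 had an entry. Of these 12, 10 held the ISRE core, 6 the GAS element, 4 the AP-1 element, 0 the CRE and 1 the NF-kB element. Of 23 tested immediate early genes, a list described below, 16 had an entry. Of these 16, 0 held the ISRE core, 1 the GAS element, 0 the AP-1 element, 1 the CRE and 1 the NF-kB element. Matches to elements other than those named for each gene are not in capitals; the Irgm1 stretch also holds letters of the AP-1 element. These are matches of letters, not bound sites, and no test was made of them.

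Of the 683 called genes, 402 had a positive interaction (3.38% of genes tested) and 281 a negative one (2.36%). Most differences were small: the median size was 0.26 on the log2 scale against 0.10 over all tested genes, 69 genes (0.58%) differed at least 1.5-fold, and 18 (0.151%) at least 2-fold. Of the 69, 48 had a negative interaction and 21 a positive one. All 683 had the same sign with both guides. The guides' interactions share the Rosa26 libraries, and genes were called on the mean of the guides. Agreement of sign is therefore favoured in advance and gives no separate support. In a test of the difference between the guides' interactions, 5 genes (0.042% of those tested) were called. The split by direction moved with the low-count filter: 58.9% of calls were positive here and 47.4% (316 positive, 350 negative) under a stricter filter.

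The counts rest on the spread between the 2 libraries of a group and on single libraries. When the libraries of each guide and treatment were summed, so that the spread came from the 2 guides, no gene was called by edgeR and 546 had an unadjusted p under 0.05, against 2185 here (18.4% of genes). Positive calls fell from 402 to 248 without Rosa26 vehicle replicate 1, to 189 without its replicate 2, to 184 without Rosa26 IFNγ replicate 1 and to 255 without Cop1_sgRNA2 IFNγ replicate 2. Negative calls fell from 281 to 164 both without Rosa26 vehicle replicate 2 and without Rosa26 IFNγ replicate 1. No called gene changed sign in an alternative that gave it a value, which DESeq2 did for 637 and the stricter filter for 682 of the 683.

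Sorted by level, 144 of the called genes (21.1%) differed between Cop1-guide and Rosa26 cells at baseline only, and 242 (35.4%) with IFNγ only. A further 235 (34.4%) differed in both states in the same direction, 59 (8.64%) in both states in opposite directions, and 3 (0.439%) in neither. For comparison, 35.8% of all tested genes differed in vehicle and 40.6% with IFNγ. Over all tested genes 10.7% differed at baseline only, 15.5% with IFNγ only and 24.6% in both in the same direction. Opposite directions held 59 of all tested genes (0.496%), and neither held 48.7%. Every opposite-direction gene was therefore called in the interaction, which opposite level differences favour in advance. The classes use the same libraries as the interaction, so they describe the called genes and give no independent support for them.

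The baseline-only genes comprised 96 with a positive interaction, whose median level difference was -0.19 in vehicle and 0.01 with IFNγ, and 48 with a negative one, at 0.24 and -0.03. The IFNγ-only genes comprised 138 positive, with medians of -0.02 in vehicle and 0.23 with IFNγ, and 104 negative, with medians of 0.02 and -0.32. Among genes that differed in both states in the same direction, the gap between genotypes was wider with IFNγ for 74 and narrower for 63 of those with a positive interaction, and wider for 73 and narrower for 25 of those with a negative one. Classes depend on the threshold for a level difference: requiring at least 1.2-fold besides the test left 94 baseline-only, 206 IFNγ-only, 94 same-direction and 9 opposite-direction genes, and placed 280 in neither.

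**Figure D1:**
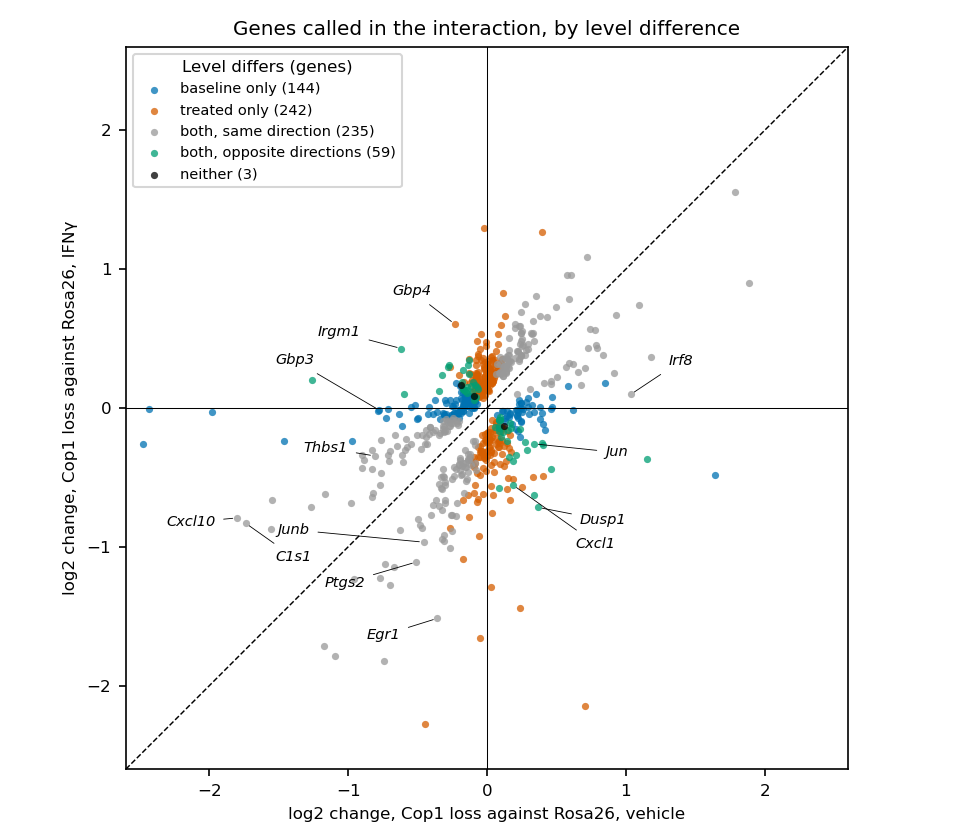
Level difference between Cop1-guide and Rosa26 cells in vehicle (horizontal axis, log2) and with IFNγ (vertical axis, log2) for the 683 called genes, each point 1 gene coloured by class; the dashed line marks equal differences. Baseline-only genes lie near the horizontal zero line (Gbp3), IFNγ-only genes near the vertical zero line (Gbp4), and the distance above or below the dashed line is the interaction.

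Guanylate-binding proteins and immunity-related GTPases, which attack the vacuoles of intracellular microbes, responded more steeply to IFNγ in Cop1-guide cells in part of the family. Of 24 listed genes 21 were tested, and all 21 rose with IFNγ in Rosa26 cells, against 16.6% of all genes. In the interaction 11 of the 21 were positive, against 3.38% of all genes, and none negative; the median was 0.68 against 0.01 for all tested genes. The median level difference was -0.63 in vehicle and -0.02 with IFNγ, and with IFNγ 4 members were higher and 5 lower, against 19.8% and 20.7% of all genes. Of the 11 called members 5 differed at baseline only, 1 with IFNγ only, 2 in both in the same direction and 3 in opposite directions. In 6 of the tested members at least 1 group held 3 counts or fewer, and the number called fell to 6 without Rosa26 vehicle replicate 1 and to 6 without its replicate 2. It was 7 with voom and 7 with sgRNA2 alone.

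Irgm1, an immunity-related GTPase that regulates autophagy and its own family, stood in vehicle at 11.3 and 10.4 CPM in Rosa26, 5.43 and 6.44 with sgRNA1, and 7.02 and 9.98 with sgRNA2. With IFNγ it reached 161 and 159.7 CPM in Rosa26, 204 and 207 with sgRNA1, and 226 and 229 with sgRNA2. All 4 Cop1-guide libraries were below the Rosa26 libraries before treatment and above them after it. The response was 3.89 ± 0.07 (log2 ± SE) in Rosa26 and 4.93 ± 0.05 in Cop1-guide cells, an interaction of 1.05 ± 0.10 (edgeR adjusted p = 1.57e-09).

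Gbp3, a guanylate-binding protein, differed at baseline only. Its vehicle values were 6.69 and 8.23 CPM in Rosa26, 3.56 and 3.66 with sgRNA1, and 5.33 and 5.16 with sgRNA2, and its IFNγ values were 391 and 380.5, 346 and 348, and 418 and 422. In vehicle the Cop1-guide libraries all lay below Rosa26, whereas with IFNγ sgRNA1 lay below and sgRNA2 above. The interaction was 0.76 ± 0.10 (adjusted p = 5.53e-07), the baseline difference -0.78 ± 0.09 (adjusted p = 9.2e-09) and the IFNγ difference -0.02 ± 0.03 (adjusted p = 0.709).

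Gbp4 was called in level with IFNγ only, at 0.60 ± 0.03 (edgeR adjusted p = 1.02e-21), and the lack of a call in vehicle does not show equal levels. The interaction of Gbp4 was 0.84 ± 0.14 (edgeR adjusted p = 5.58e-05), larger than its difference with IFNγ. That call was lost without Rosa26 vehicle replicate 2, where the interaction was 0.49 (adjusted p = 0.294). Tgtp1 had 19 counts in Rosa26 vehicle and 4 and 3 in the sgRNA1 and sgRNA2 vehicle groups, so its fitted interaction depends on a handful of reads, and it has a near-identical copy, Tgtp2, with which reads can be shared.

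MHC class I presentation genes, which cut, load and display peptides for CD8 T cells, had 11 of 23 tested members positive and 2 negative, against 3.38% and 2.36% of all genes, with a median interaction of 0.22. All 23 rose with IFNγ in Rosa26 cells, against 16.6% of all genes. Among the 13 called, 4 differed at baseline only, 4 with IFNγ only, 4 in both in the same direction and 1 in opposite directions. In level, 14 of the 23 were higher in Cop1-guide cells with IFNγ and 3 lower, against 19.8% and 20.7% of all genes. In vehicle 7 were higher and 7 lower, against 16.6% and 19.2% of all genes. The number of positive members was 8 to 11 when each library was left out. The 2 negative members were lost without Rosa26 vehicle replicate 2, and 1 was left in every other omission except those of Cop1_sgRNA2 vehicle replicate 2 and Cop1_sgRNA2 IFNγ replicate 2. Heavy-chain genes of this family share sequence, so their reads may be split between copies.

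H2-T23, the mouse Qa-1 molecule read by NKG2A, was at 36.5 and 34.2 CPM in Rosa26 vehicle, 21.6 and 19.3 with sgRNA1, and 21 and 22.9 with sgRNA2. After IFNγ it was at 233 and 223 CPM, 225 and 209, and 216 and 219. The genotypes were apart in vehicle and overlapped with IFNγ. Its interaction was 0.66 ± 0.07 (edgeR adjusted p = 2.3e-09), with a level difference of -0.73 ± 0.06 at baseline and -0.07 ± 0.04 (adjusted p = 0.124) with IFNγ.

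Tapbp (tapasin, which holds class I molecules at the peptide transporter) followed the same class, with an interaction of 0.35 ± 0.04 (adjusted p = 2.17e-08), -0.39 ± 0.03 at baseline and -0.04 ± 0.03 (adjusted p = 0.222) with IFNγ. Psmb10, a catalytic subunit of the immunoproteasome, crossed over: its level difference was -0.18 ± 0.05 at baseline and 0.19 ± 0.03 with IFNγ, and its interaction 0.37 ± 0.06 (adjusted p = 2.09e-05). B2m, the shared light chain, had an interaction of 0.04 ± 0.03 (adjusted p = 0.57).

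Of 8 tested MHC class II genes, which present peptides to CD4 T cells, 4 had 3 counts or fewer in at least 1 group. In the interaction 2 of the 8 were positive, against 3.38% of all genes, and this fell to 0 without Rosa26 vehicle replicate 2 and to 0 without Rosa26 IFNγ replicate 1, and to 1 without Cop1_sgRNA1 vehicle replicate 1, Cop1_sgRNA1 IFNγ replicate 2 or Cop1_sgRNA2 IFNγ replicate 2. With sgRNA2 alone 0 of the 8 had a positive call, and with sgRNA1 alone 2 did. All 8 were higher in Cop1-guide cells with IFNγ, against 19.8% of all genes. H2-Eb1 had 0 counts in all vehicle libraries, so no difference of responses can be given, and with IFNγ it had 212 counts in Rosa26, 711 with sgRNA1 and 425 with sgRNA2.

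**Figure D2:**
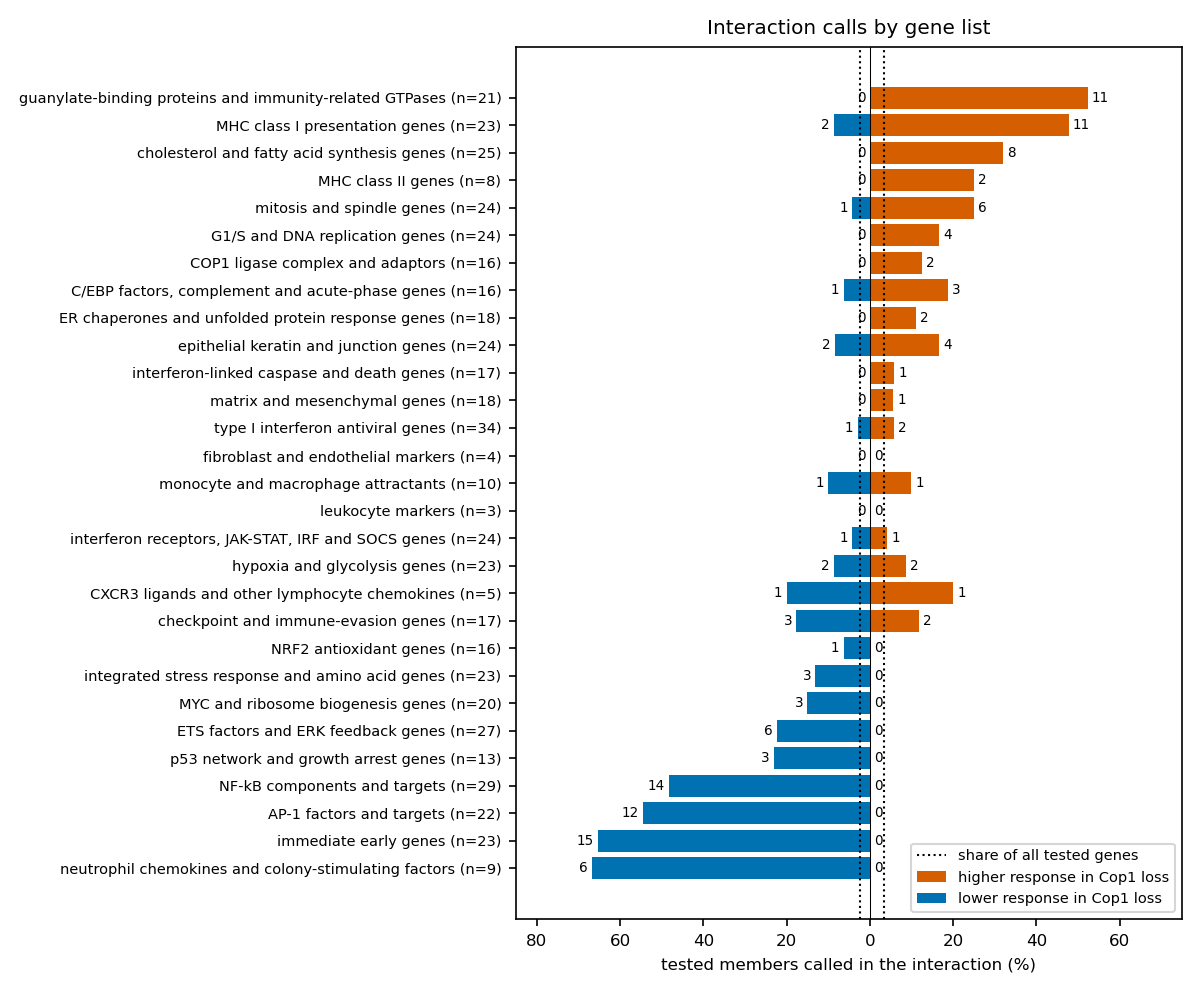
Share of tested members of each gene list called in the interaction, to the right for a more positive and to the left for a more negative response in Cop1-guide cells, with the number of members beside each bar; dotted lines mark the shares over all tested genes, 3.38% and 2.36%. Guanylate-binding protein and MHC class I genes extend to the right, and neutrophil chemokine, immediate early, AP-1 and NF-kB genes extend to the left.

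Genes of the type I interferon antiviral set, shared in part with the IFNγ response, were mostly lower in Cop1-guide cells in both states, and few passed the test of the response. Of 34 tested members 27 were lower in vehicle (19.2% of all genes) and 29 with IFNγ (20.7% of all genes), with median level differences of -0.59 and -0.56. In the interaction 2 were positive and 1 negative, against 3.38% and 2.36% of all genes, with a median of 0.02. The 2 positive genes were Oasl2, an oligoadenylate synthetase-like protein (0.51 ± 0.09, adjusted p = 8.38e-05), and Parp14, a mono-ADP-ribosyltransferase (0.39 ± 0.08, adjusted p = 0.000657). The negative one, Ifit1, was not called with sgRNA2 alone (-0.44, edgeR adjusted p = 0.224). It also lost its call without Rosa26 vehicle replicate 1 (-0.61) and without Rosa26 IFNγ replicate 1 (-0.63).

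Of 24 signalling components tested, 1 was positive and 1 negative, shares near the 3.38% and 2.36% of all genes. Irf1, the first-wave transcription factor of the pathway, had an interaction of 0.06 ± 0.05 (adjusted p = 0.554). The positive count was 0 without Rosa26 vehicle replicate 1 or without its replicate 2, and 2 without Cop1_sgRNA2 vehicle replicate 2.

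Irf8, an interferon regulatory factor best known from myeloid cells, went the other way. In vehicle it was at 17.6 and 18.9 CPM in Rosa26, 39.3 and 40.5 with sgRNA1, and 33.5 and 36.6 with sgRNA2, and with IFNγ at 215 and 221, 245 and 236, and 222 and 230.5. Cop1-guide libraries were all above Rosa26 in both states, with a wide gap in vehicle and a narrow one with IFNγ. The level difference was 1.04 ± 0.06 and then 0.10 ± 0.03 (adjusted p = 0.0189), and the interaction was -0.94 ± 0.07 (edgeR adjusted p = 8.61e-14).

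Cxcl10, a CXCR3 ligand that attracts T cells, shows how the scale decides the direction. Its vehicle values were 6.32 and 6.94 CPM in Rosa26, 1.87 and 1.22 with sgRNA1, and 1.78 and 2.65 with sgRNA2, and with IFNγ 149 and 153, 81.3 and 79.4, and 95 and 94.6. Cop1-guide libraries were lower in both states. The fold induction was larger in Cop1-guide cells (interaction 1.01 ± 0.15, adjusted p = 4.81e-06), while the gain counted in CPM was smaller, with a difference of gains of -58.7 CPM.

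The same reversal between scales held for 28 of the 683 called genes, 24 of them positive on the log2 scale. C1s1, a complement protease, was among them, with an interaction of 0.91 ± 0.12 (adjusted p = 1.73e-06), a level difference of -1.74 ± 0.11 in vehicle and -0.83 ± 0.05 with IFNγ, and a difference of gains of -44.1 CPM. Cxcl9, the other CXCR3 ligand with a strong response, had 2, 2 and 4 counts in the Rosa26, sgRNA1 and sgRNA2 vehicle groups, and its interaction was not resolved (-1.46 ± 1.01, adjusted p = 0.532). With IFNγ it stood at 304 and 297 CPM in Rosa26 against 145 and 138 with sgRNA1 and 154 and 144 with sgRNA2, a level difference of -1.05 ± 0.04 (adjusted p = 7.73e-26).

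**Figure D3:**
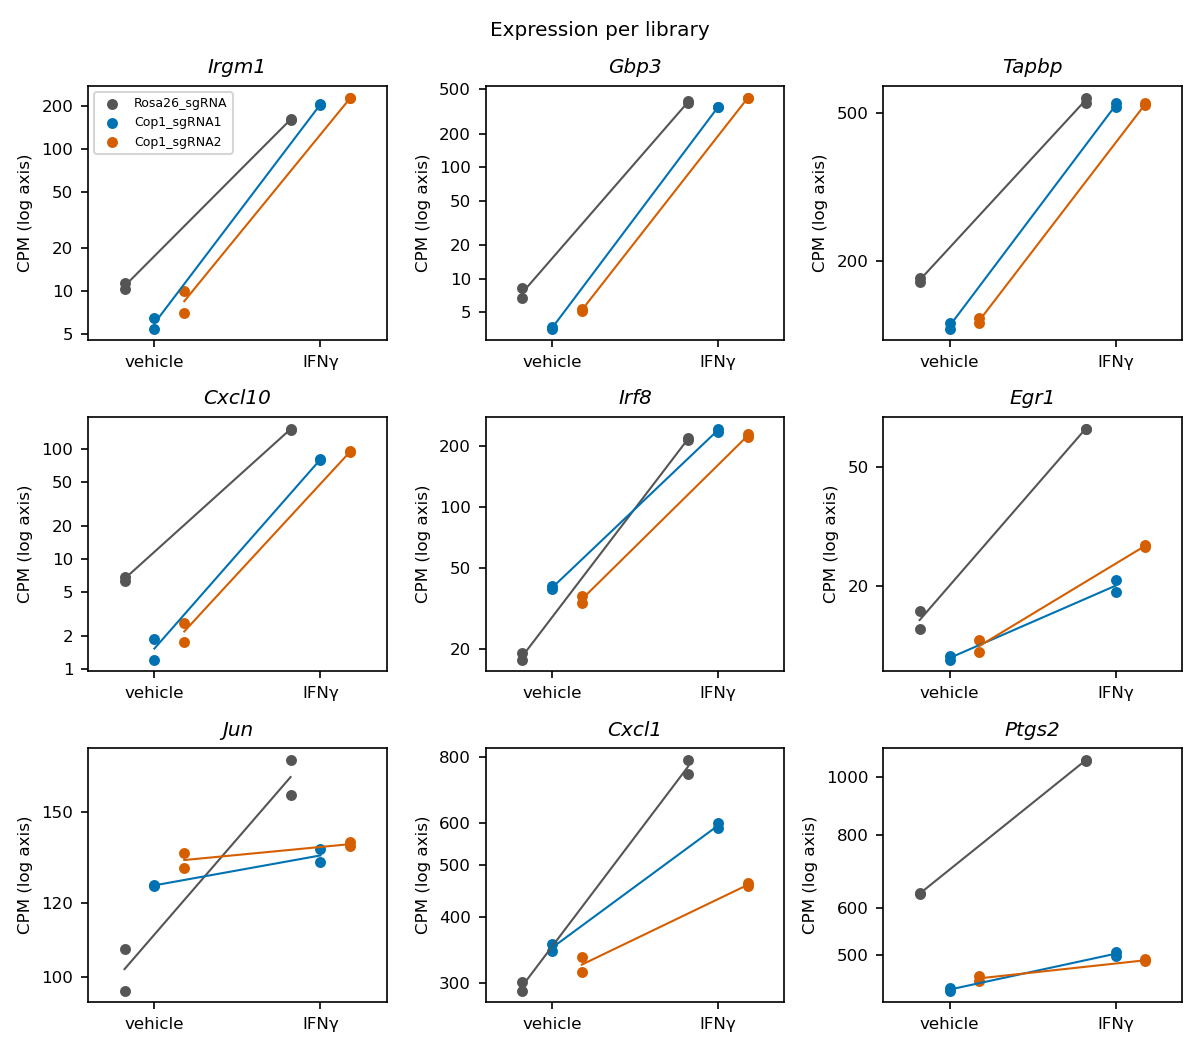
CPM on a log axis for 9 genes in vehicle and with IFNγ, each point 1 library and each line joining the means of 2 libraries, coloured by guide. Lines converge from below for Tapbp, and for Gbp3 with sgRNA1 while sgRNA2 crosses Rosa26. They cross for Irgm1, Jun and Cxcl1, converge from above for Irf8, and fan apart for Egr1 and Ptgs2.

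Immediate early genes, which encode transcription factors and regulators switched on within minutes by growth factors and stress, had flatter responses to IFNγ in Cop1-guide cells in part of the list. Of 23 tested members 15 had a negative interaction, against 2.36% of all genes, and none a positive one, with a median of -0.45 and values up to 0.54. The number called was 12 to 15 when each library was left out. With IFNγ 19 members were lower in Cop1-guide cells, against 20.7% of all genes. In vehicle 11 were lower and 5 higher, against 19.2% and 16.6% of all genes. Of the 15 called, 3 differed with IFNγ only, 8 in both states in the same direction and 4 in opposite directions, and none at baseline only.

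Egr1, a zinc finger transcription factor induced by ERK signalling, was at 16.5 and 14.4 CPM in Rosa26 vehicle, 11.4 and 11.7 with sgRNA1, and 13.2 and 12.1 with sgRNA2. With IFNγ it was at 66.9 and 67.1 CPM in Rosa26 but 21.1 and 19.1 with sgRNA1 and 27.1 and 27.5 with sgRNA2. The Cop1-guide libraries were lower in both states, by a small margin in vehicle and a large one with IFNγ. Its response was 2.12 ± 0.08 in Rosa26 and 0.96 ± 0.07 in Cop1-guide cells, and the interaction was -1.16 ± 0.11 (edgeR adjusted p = 2.3e-10).

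AP-1 factors and targets, which share Jun, Junb, Fos and Atf3 with that list, had 12 of 22 tested members negative, against 2.36% of all genes, and none positive, with a median of -0.25 (10 to 13 negative when each library was left out). Jun, whose protein is a COP1 substrate, was at 107 and 96.6 CPM in Rosa26 vehicle, 125 and 125 with sgRNA1, and 136 and 131 with sgRNA2, and with IFNγ at 170.5 and 156, 132 and 137, and 138 and 139. Cop1-guide cells were above Rosa26 before treatment and below it after. Jun rose by 0.68 ± 0.05 in Rosa26 and by 0.08 ± 0.03 in Cop1-guide cells, with an interaction of -0.60 ± 0.06 (adjusted p = 2.3e-10).

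Junb, a related AP-1 factor, was lower in Cop1-guide cells in both states, by -0.46 ± 0.03 in vehicle and -0.97 ± 0.03 with IFNγ, and its interaction was -0.51 ± 0.04 (adjusted p = 1e-12). Atf3, a stress-induced partner of JUN, had level differences of -1.17 and -1.71 and an interaction of -0.54 ± 0.08 (adjusted p = 1.47e-05). Mmp13, a collagenase and AP-1 target, differed with IFNγ only (-1.09 ± 0.08), with an interaction of -0.92 ± 0.13 (adjusted p = 3.38e-06). Fos was lowest of the list at -1.83 ± 0.38 (adjusted p = 0.0013), from levels of 0.481 to 7.65 CPM, and lost its call without Cop1_sgRNA2 vehicle replicate 2 (-1.26, adjusted p = 0.0773).

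Of 27 ETS and ERK feedback genes tested 6 were negative, against 2.36% of all genes, and none positive, with a median of -0.05, and 4 to 7 were negative when each library was left out, with 4 without Rosa26 vehicle replicate 2. Dusp1, a phosphatase that switches off MAP kinases, was at 17.3 and 17.7 CPM in Rosa26 vehicle, 23.2 and 22.1 with sgRNA1, and 23.3 and 21.8 with sgRNA2, and with IFNγ at 33.2 and 36.5, 23.6 and 20.2, and 19.3 and 21.8. It rose in Rosa26 by 0.99 ± 0.09, while the value in Cop1-guide cells was -0.09 ± 0.07, and the interaction was -1.08 ± 0.11 (edgeR adjusted p = 2.67e-09). Dusp5, a phosphatase of nuclear ERK, also crossed, with an interaction of -0.67 ± 0.07 (adjusted p = 1.03e-08).

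NF-kB components and targets had 14 of 29 tested members negative, against 2.36% of all genes, and none positive, with a median of -0.31 (12 to 15 negative when each library was left out). Of the 29, 28 rose with IFNγ in Rosa26 cells, against 16.6% of all genes. With IFNγ 26 members were lower in Cop1-guide cells, against 20.7% of all genes, and in vehicle 12 were, against 19.2%. Tnfaip3, the ubiquitin editor A20 that restrains NF-kB, was higher in Cop1-guide cells in vehicle (0.23 ± 0.03) and lower with IFNγ (-0.15 ± 0.03), with an interaction of -0.38 ± 0.04 (adjusted p = 4.27e-09). Sod2, mitochondrial superoxide dismutase, differed with IFNγ only (-0.39 ± 0.04), with an interaction of -0.44 ± 0.05 (adjusted p = 1.36e-07).

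Neutrophil chemokines and colony-stimulating factors had 6 of 9 tested members negative, against 2.36% of all genes, and none positive, with a median of -0.30. The number was 5 to 6 when each library was left out, 4 with DESeq2 and 3 with sgRNA1 alone. Cxcl1, a CXCR2 ligand that attracts neutrophils, was at 289.7 and 301 CPM in Rosa26 vehicle, 355 and 344 with sgRNA1, and 335 and 314 with sgRNA2. With IFNγ it was at 791 and 744 CPM, 600.5 and 588, and 463 and 456. All Cop1-guide libraries lay above Rosa26 in vehicle and below it with IFNγ. The interaction was -0.74 ± 0.04 (edgeR adjusted p = 1.61e-17), from responses of 1.38 ± 0.03 and 0.63 ± 0.02.

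Csf3, the granulocyte growth factor G-CSF, had an interaction of -0.30 ± 0.03 (adjusted p = 1.47e-08), but the guides differed in level. With IFNγ it was at 1036 and 1049.6 CPM in Rosa26, 1082 and 1086 with sgRNA1, and 753 and 757 with sgRNA2. Only sgRNA2 was below Rosa26 there, and in vehicle sgRNA1 was above Rosa26 (572 and 548 against 467 and 449 CPM) and sgRNA2 below it (437 and 423 CPM).

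Ptgs2, the prostaglandin synthase COX-2, was at 633 and 637 CPM in Rosa26 vehicle, 439 and 434 with sgRNA1, and 451 and 461 with sgRNA2. With IFNγ it was at 1072 and 1066 CPM, 498 and 506, and 492 and 487. The Cop1-guide libraries treated with IFNγ were below the untreated Rosa26 libraries. It rose by 0.75 ± 0.03 in Rosa26 and 0.15 ± 0.02 in Cop1-guide cells, with an interaction of -0.60 ± 0.03 (adjusted p = 1.61e-17).

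Of 23 integrated stress response genes 3 were negative, against 2.36% of all genes: Atf4, the central factor of that response (-0.38 ± 0.04, adjusted p = 2.4e-09), Slc3a2, a subunit of amino acid transporters (-0.29 ± 0.04, adjusted p = 1.47e-05), and Ppp1r15a, a phosphatase subunit that ends it (-0.58 ± 0.11, adjusted p = 0.000405). The list's level difference was present in both states, with 22 members lower in vehicle and 21 with IFNγ, against 19.2% and 20.7% of all genes. The list's median interaction was 0.00. In the p53 list 3 of 13 were negative, against the same 2.36%, among them the cell cycle inhibitor Cdkn1a (-0.65 ± 0.10, adjusted p = 6.38e-06), which was higher in Cop1-guide cells in vehicle (0.40 ± 0.07) and lower with IFNγ (-0.25 ± 0.06).

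Cholesterol and fatty acid synthesis genes mostly fell with IFNγ in control cells. In Rosa26 cells 15 of 25 tested members fell with IFNγ, against 16.2% of all genes, and 1 rose, and 8 of the 25 had a positive interaction, against 3.38% of all genes, and none a negative one, with a median of 0.11 (7 to 8 when each library was left out). Scd2, a fatty acid desaturase, was at 1931 and 1947 CPM in Rosa26 vehicle, 1499 and 1497 with sgRNA1, and 1589 and 1641 with sgRNA2, and with IFNγ at 1362 and 1359.7, 1244 and 1252, and 1313 and 1293. Cop1-guide libraries were lower in both states, by a wider margin in vehicle. The level differences were -0.32 ± 0.02 and -0.09 ± 0.02, with an interaction of 0.22 ± 0.03 (adjusted p = 3.59e-07). The levels of Scd2 did not represent its list. With IFNγ 12 of the 25 were higher in Cop1-guide cells and 3 lower, against 19.8% and 20.7% of all genes. In vehicle 6 were higher and 5 lower, against 16.6% and 19.2% of all genes.

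Acaca, the enzyme that makes malonyl-CoA, fell in Rosa26 by 0.24 ± 0.05 on the log2 scale and rose in Cop1-guide cells by 0.13 ± 0.03, with an interaction of 0.37 ± 0.06 (adjusted p = 1.78e-05). Mitosis and spindle genes had 6 of 24 positive and 1 negative, against 3.38% and 2.36% of all genes, but 3 positive without Rosa26 vehicle replicate 1, 3 without its replicate 2 and 3 with sgRNA1 alone. The negative call was lost without any 1 of the 4 Rosa26 libraries and without replicate 1 of Cop1_sgRNA1 vehicle, Cop1_sgRNA1 IFNγ or Cop1_sgRNA2 IFNγ.

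Among the IFNγ-only genes with the smallest p were Fscn1 and Eif1, which are on none of the lists. Fscn1, which bundles actin in migrating cells, was at 457 and 456 CPM in Rosa26 vehicle, 449 and 460.0 with sgRNA1, and 439 and 460.2 with sgRNA2, and with IFNγ at 338 and 329.8, 431 and 420.0, and 414 and 414. Vehicle values overlapped, and with IFNγ every Cop1-guide library was above Rosa26. It fell by 0.45 ± 0.03 on the log2 scale in Rosa26 and by 0.11 ± 0.02 in Cop1-guide cells, an interaction of 0.35 ± 0.04 (edgeR adjusted p = 4.97e-09).

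Eif1, a translation initiation factor, rose by 0.33 ± 0.03 in Rosa26, while the value in Cop1-guide cells was -0.0038 ± 0.02 (adjusted p = 0.9), and its interaction was -0.33 ± 0.03 (adjusted p = 3.73e-10). Thbs1, the matrix protein thrombospondin-1, differed in both states. It was at 341 and 340.4 CPM in Rosa26 vehicle, 177 and 177 with sgRNA1, and 204 and 223 with sgRNA2, and with IFNγ at 365 and 363, 264 and 265, and 307 and 313. All Cop1-guide libraries were lower in both states, by -0.81 ± 0.03 and then -0.34 ± 0.03, and the interaction was 0.46 ± 0.04 (adjusted p = 5.99e-11).

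**Figure D4:**
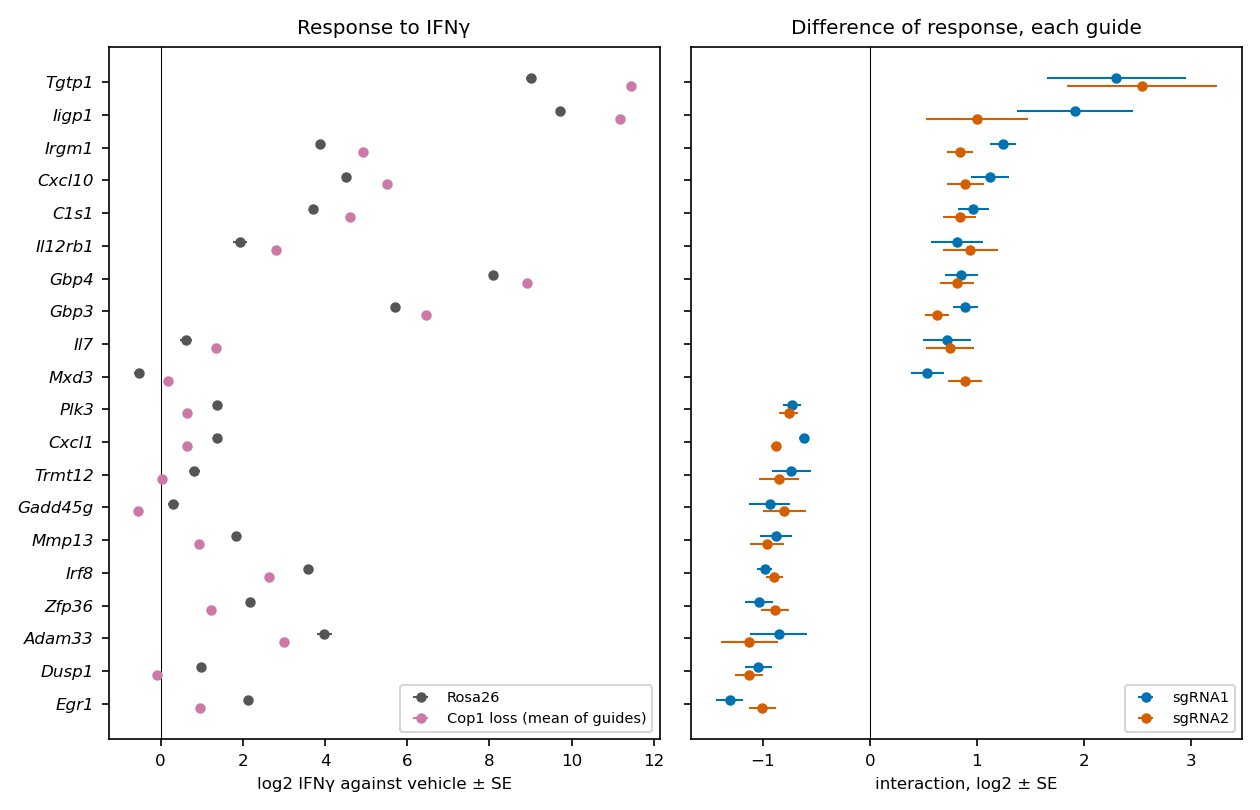
Left, log2 response to IFNγ in Rosa26 and Cop1-guide cells, and right, the interaction of each guide. The genes are the 10 largest positive and 10 largest negative interactions among called genes whose mean log2 CPM reached 3. Called genes with a lower mean level, such as Fos, were not eligible. Points are estimates and bars the standard error. Both guides lie on the same side of zero for all 20 genes, which the choice of genes required, and Tgtp1 and Iigp1 have the widest bars.

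C/EBP factors, whose proteins are COP1 substrates, differed in level, and neither Cebpb nor Cebpd passed the test of the response here. Cebpb was lower in Cop1-guide cells in both states, with level differences of -0.63 ± 0.05 in vehicle and -0.82 ± 0.05 with IFNγ and an interaction of -0.19 ± 0.07 (edgeR adjusted p = 0.115). It passed without a low-count filter (adjusted p = 0.025), without Cop1_sgRNA1 vehicle replicate 2 (-0.23, adjusted p = 0.0235) and without Cop1_sgRNA2 vehicle replicate 2 (-0.24, adjusted p = 0.0175). For Cebpd the level differences were -1.02 ± 0.08 and -1.24 ± 0.07, and the interaction was -0.22 ± 0.11 (adjusted p = 0.283). In the list of these factors with complement and acute-phase genes, 10 of 16 were lower in Cop1-guide cells with IFNγ and 0 higher. The shares of all genes were 20.7% and 19.8%. In vehicle 8 were lower and 1 higher, against 19.2% and 16.6% of all genes. In the interaction 3 of the 16 were positive, against 3.38% of all genes, among them C1s1 and the complement component C3 (0.30 ± 0.04, adjusted p = 4.93e-06). The list's median interaction was -0.23, and 1 member was negative, against 2.36% of all genes. That negative count was 0 without Rosa26 vehicle replicate 2 and 2 without replicate 2 of Cop1_sgRNA1 vehicle or of Cop1_sgRNA2 vehicle.

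Epithelial keratin and junction genes had 4 of 24 positive and 2 negative, against 3.38% and 2.36% of all genes, with 2 positive without Rosa26 vehicle replicate 1 and 2 without Rosa26 IFNγ replicate 1. Krt18, a simple-epithelium keratin, fell by 0.38 on the log2 scale in Rosa26 and by 0.18 in Cop1-guide cells (interaction 0.19 ± 0.03, adjusted p = 4.01e-05). Cldn4, a tight junction protein, had a response of 0.40 in Rosa26 and 0.04 in Cop1-guide cells (interaction -0.36 ± 0.04, adjusted p = 8.9e-09). Of the markers of other cell types, 0 of 3 tested leukocyte markers and 0 of 4 tested fibroblast and endothelial markers were called by edgeR, DESeq2 or voom. At an unadjusted p under 0.05 in edgeR these were 1 (Cd14) and 2 (Col1a1 and Postn), against 18.4% of all genes.

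At the threshold, the called genes with the largest adjusted p were Ltbp1 (0.14 ± 0.04), Ddb1 (0.09 ± 0.03) and Tecr (0.14 ± 0.04), and the first genes not called were Il33 (-0.99 ± 0.31), Brpf1 (0.25 ± 0.08) and Srrm1 (0.13 ± 0.04). Of 101 called genes chosen for naming, 66 kept their call in every alternative that gave them a value, other than the summed libraries, under which none did. DESeq2 and the stricter filter gave no value for some genes.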

How the data were processed

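RNA was sequenced from 12 libraries of 4T1 cells. Per the submitters' processing notes the tools were STAR 2.4.0, HTSeq and DESeq2 1.10 with build mm10, and the deposited values are the authors' whole-number gene counts, not normalized. The strand setting, annotation and treatment of multiply aligned reads were not given in the sources used here, so counts of overlapping genes and gene families are uncertain. A row of totals was dropped.

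Counts were tested with edgeR 4.0.16 (R 4.3.3): TMM normalization, filterByExpr (minimum count 10, minimum total 15), robust quasi-likelihood F tests and a model of 6 group means. All 11904 genes tested entered the Benjamini-Hochberg adjustment, with calls at an adjusted p under 0.05. Level classes come from the Cop1-guide against Rosa26 contrasts in vehicle and with IFNγ. Each SE was derived from the test, as the size of the log2 change divided by the square root of the F statistic. CPM use TMM-scaled library sizes. On simulated counts (11826 genes) the interaction model recovered 46% of 1.25-fold, 84% of 1.5-fold, 90% of 2-fold and 100% of 4-fold changes, and 3.61% of calls were false. The 2 libraries of a group differed beyond sampling noise in all 6 groups (chi-square per degree of freedom 2.33 to 4.21).

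Genes named were Cop1, the 10 largest positive and negative interactions of called genes whose mean log2 CPM reached 3, the 3 smallest p in each level class and direction and among the called members of each list, up to 2 uncalled members and a set of interest. Igtp was shown for its promoter and chosen after its values were seen. The members and lists were chosen with earlier results of these data known. Promoters come from RefSeq (GRCm38.p6), 250 bases upstream. Alternatives were another normalization (RLE), low-count filters, DESeq2 1.42.0, limma 3.58.1 (voom), a replicate block, each guide alone, summed libraries and each library left out. A few items are not reported here.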

Additional observations from a re-analysis of the deposited data

Results flagged for a closer look

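The response to IFNγ differed between Cop1-guide and Rosa26 cells in 683 genes by the interaction test itself, as described in the report. The interactions of the guides differed from each other in 5 genes (0.042% of those tested, edgeR quasi-likelihood test with Benjamini-Hochberg adjustment), given here as the sgRNA2 interaction minus the sgRNA1 interaction on the log2 scale.

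Cxcl1, the neutrophil chemokine, differed by -0.26 ± 0.05 (SE, adjusted p = 0.00582), from interactions of -0.61 with sgRNA1 and -0.88 with sgRNA2. Cxcl5, a second ligand of the same receptor, differed by -0.31 ± 0.04 (adjusted p = 1.48e-05), from -0.12 and -0.43. Both genes had negative interactions with both guides, and the size was larger with sgRNA2. Rnf213, an interferon-induced ubiquitin ligase, differed by 0.55 ± 0.08 (adjusted p = 0.0109), from -0.24 with sgRNA1 and 0.30 with sgRNA2. Its guides had opposite signs, and their mean of 0.03 (adjusted p = 0.879) was not called. Aff1, a transcription elongation factor, differed by 0.30 ± 0.06 (adjusted p = 0.0294), from -0.11 and 0.19. H1f0, a linker histone, differed by 0.25 ± 0.05 (adjusted p = 0.0109), from 0.06 and 0.32.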

How the results depend on the processing

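The control is 1 population with 2 libraries per state, and every interaction rests on those 4 libraries. On simulated counts small changes were recovered least often, and depth and spread were not varied there. With the libraries of each guide and treatment summed, the calls were 0 positive and 0 negative by edgeR, 0 in every level class, and 546 genes had an unadjusted p under 0.05. The spread then came from 2 guides with few degrees of freedom. No called gene reversed its sign in an alternative that gave it a value, which DESeq2 did for 637 and the stricter filter for 682 of the 683.

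The number of positive calls was 392 with RLE normalization, 437 without a filter, 316 with the stricter filter, 287 with DESeq2, 383 with voom and 337 with sgRNA2 alone, and 216 with sgRNA1 alone. Negative calls were 281, 327, 350, 202, 274, 232 and 200. The stricter filter moved the median of all genes from 0.01 to -0.01. Leaving out each library gave 184 to 421 positive calls and 164 to 312 negative ones, 52 to 156 baseline-only, 113 to 275 IFNγ-only, 112 to 246 same-direction, 26 to 63 opposite-direction and 0 to 4 genes in neither. Without Cop1_sgRNA2 IFNγ replicate 2, 45.8% of calls were positive.

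Genes in neither class numbered 6 without a filter, 0 with the stricter filter, 7 with DESeq2, 1 with the replicate block and 0 with sgRNA1 alone. Opposite-direction genes numbered 37 with DESeq2 and 39 with sgRNA1 alone. With sgRNA1 alone there were 71 baseline-only, 157 IFNγ-only and 149 same-direction genes, and with sgRNA2 alone 139 same-direction genes. Requiring a level change of 1.2-fold gave 94 baseline-only, 94 same-direction and 9 opposite-direction genes and 280 in neither. The values of a single guide are contrasts in the same model of 12 libraries. The cause of these shifts was not tested.

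Replicate numbers did not pair the samples: over 15 pairs of groups the correlation of the deviations was -0.08 to 0.06. With the replicate number as a block, 410 positive and 283 negative genes were called, and 676 of the 683 kept their call and sign. Fewer kept both elsewhere: 673 with RLE, 670 without a filter, 646 with voom and 595 with the stricter filter. The number was 488 with DESeq2, 460 with sgRNA2 alone and 374 with sgRNA1 alone.

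Reversals occurred in named genes without a call. Ccl2 was 0.14 with sgRNA1 alone and -0.32 to 0.047 when each library was left out (above zero without Cop1_sgRNA1 vehicle replicate 2). Socs1 was 0.098 with sgRNA1 alone and -0.18 to 0.034 with each library left out, above zero without replicate 2 of Rosa26 vehicle (0.025) or of Cop1_sgRNA2 vehicle. B2m was -0.041 with sgRNA2 alone, Ciita -0.012 without Rosa26 vehicle replicate 1 and at most 1.997 without its replicate 2, and Aff1 -0.11 with sgRNA1 alone. Isg15 was 0.044 with sgRNA2 alone and -0.12 to 0.13 with each library left out, above zero without Cop1_sgRNA1 vehicle replicate 1 or Cop1_sgRNA2 IFNγ replicate 1 (0.031). Rnf213 was -0.24 with sgRNA1 alone, -0.029 without Rosa26 vehicle replicate 2, -0.0057 without Cop1_sgRNA1 vehicle replicate 1, -0.00098 without Cop1_sgRNA2 vehicle replicate 2 and -0.039 without Rosa26 IFNγ replicate 1.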
